A study of Mus musculus with 24 samples.

Results

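The salt-inducible kinases and the CREB-regulated transcription coactivators are 2 small families of 3 genes each, Sik1, Sik2, Sik3 and Crtc1, Crtc2, Crtc3. They were taken by symbol from a count table of the mouse dorsal hippocampus, and all 6 symbols matched exactly 1 of its 51826 gene identifiers through GENCODE M21. Sik1 was chosen in part because its response to training had differed between the 2 learning tasks of the study, so its values in trained and untrained wildtype mice are given as a description with no test, and no other measure of that contrast is used to support it.

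CREB is a transcription factor that neurons switch on when calcium and cyclic AMP rise. CRTC proteins wait in the cytoplasm, held there by 14-3-3 proteins once SIK kinases have phosphorylated them, and calcineurin frees them to enter the nucleus and work with CREB. SIK kinases need the upstream kinase LKB1 (Stk11) and are inhibited by protein kinase A. Sik1 is itself a textbook CREB target, so the kinase that restrains the coactivators is made anew after neurons fire. CBP (Crebbp) is another coactivator of CREB, and its KIX domain binds the phosphorylated form of CREB.

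The study compared wildtype (WT) mice with CBP KIX/KIX mice, which are homozygous for point mutations in the KIX domain that block binding of phosphorylated CREB and of c-Myb, on a C57BL/6J background. The controls were WT littermates, and the labels give male mice aged 2 to 4 months. RNA-Seq 1 held 3 WT homecage libraries, 3 libraries of WT mice and 3 of CBP KIX/KIX mice trained in the Morris water maze (MWM), a spatial task in which the animal finds a hidden platform, over consecutive days and killed 1 h after the last trial. RNA-Seq 2 held 3 WT homecage, 4 CBP KIX/KIX homecage, 4 WT and 4 CBP KIX/KIX libraries, the trained animals of this set having received a single foot-shock in a chamber (contextual fear conditioning, CFC) 1 h before dissection. Homecage mice were not trained, and those of RNA-Seq 2 were handled. RNA-Seq 1 was made from ribosome-depleted, strand-specific total RNA at one site and RNA-Seq 2 from polyA-selected RNA at another, so task, library type and site cannot be told apart, and RNA-Seq 1 had no untrained CBP KIX/KIX mice.

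Libraries of RNA-Seq 1 held 38174044 to 65709282 counts, and those of RNA-Seq 2 held 15385836 to 46056290. A floor of 3 counts, which covers counting error only, was at most 0.195 CPM (counts scaled to library size), far under every level given here. Markers of hippocampal excitatory neurons (5 genes, summed) stood at 4061 to 6784 CPM in RNA-Seq 1 and 5563 to 6819 in RNA-Seq 2, and none of them was at 0 in any library. Markers of neighbouring tissue were uneven: the 5 choroid plexus genes summed to 115 to 2391 CPM in RNA-Seq 1 and 29.0 to 4558 in RNA-Seq 2, and none was at 0 in any library. The 3 thalamus genes summed to 43.8 to 62.2 CPM in CBP KIX/KIX homecage mice. The other RNA-Seq 2 groups lay higher, from 64.25 to 81.2, both in CBP KIX/KIX CFC mice. In RNA-Seq 1 the 2 endothelial genes summed to 60.0 to 76.5 CPM in WT homecage mice. They summed to 36.9 to 52.5 in WT MWM and 36.4 to 47.1 in CBP KIX/KIX MWM mice. The part of these differences in the results was not tested. Crebbp itself carries point mutations, so its level does not check the labels. It averaged 176.6 ± 32.9 CPM (SD, n = 3) in WT homecage, 164 ± 24.7 (n = 3) in WT MWM and 152.5 ± 13.04 (n = 3) in CBP KIX/KIX MWM mice, and its adjusted p was at least 0.528 in all 9 comparisons.

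A pair of libraries stood apart, and results that rest on them are given with and without them. The first did so in immediate early genes. Replicate 3 of the CBP KIX/KIX homecage group, labelled untrained, had 117 CPM of Fos, the best known immediate early gene, where the other 3 libraries of its group had 1.83 to 4.77 and the 4 CBP KIX/KIX CFC libraries had 18.0 to 24.9. Of 11 listed CREB target genes, 8 were higher in that library than in the rest of its group. Over all tested genes 43.4% lay outside the range of the rest of its group, in either direction. Among the 8, Bdnf (129.5 against 126.9 CPM in replicate 4) and Gadd45b (18.5 against 17.8), named after their values were seen, were higher by little. Its choroid plexus markers summed to 2856 CPM against 129.9 to 801.2 in the rest of the group. Other RNA-Seq 2 groups reached higher sums, up to 4558 in WT CFC and 4247 in CBP KIX/KIX CFC mice. Over all tested genes its median distance from the rest of its group was 0.13 on the log2 scale, the smallest of the 4 libraries, whose highest was 0.19. Replicate 1 of that group weighed on the calls as well, since leaving it out took the genes called after CFC in CBP KIX/KIX mice from 0 to 999 and those called between untrained genotypes from 5 to 445. Replicate 3 of the WT homecage group in RNA-Seq 1 had 4061 CPM of the neuron markers against 6455 and 6784 in the other 2, and 1471 CPM of the choroid plexus markers against 115 and 127. The choroid plexus sum reached 1446 in WT MWM and 2391 in CBP KIX/KIX MWM mice. Of the neuron markers, Camk2a (2183 CPM against 3208 and 3736) and Slc17a7 (1580 against 2904 and 2726) carried this gap. Prox1 (77.5 against 80.6 and 83.2), Neurod6 (69.0 against 74.5 and 63.1) and Wfs1 (151 against 188 and 176) differed by less. Its median distance from the rest of its group over all tested genes was 0.29 on the log2 scale, the largest of the 24 libraries.

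The genes were placed on GRCm38 by GENCODE M21. Sik1 lies at chr17:31844250-31855804 on the minus strand, Sik2 at chr9:50892801-51009073 on the minus strand and Sik3 at chr9:46012820-46224194 on the plus strand. Crtc1 lies at chr8:70382355-70439579 (minus), Crtc2 at chr3:90254163-90264125 (plus) and Crtc3 at chr7:80586627-80688877 (minus). Sik1, Sik3, Crtc1 and Crtc2 overlap no other annotated gene. Exons of Sik2 overlap those of Ppp2r1b on the opposite strand, and as the strand setting of the counting is not given in the sources used here, reads from the shared stretch may not be told apart. Crtc3 overlaps Gm44931 and Gm15880 in introns only, and these averaged at most 14.9 counts a library.

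Promoter sequence is shown because CREB binds the letters TGACGTCA, or either of their ends TGACG and CGTCA, and because the mutated domain is the one CREB binds. RefSeq windows on GRCm38.p6, each of 250 bases before the gene start and 50 from it on, matched 4 of the 6 genes (Sik2, Sik3, Crtc1 and Crtc3). The first line is Sik2, chr9:51009024-51009323 on the minus strand, and the second Sik3, chr9:46012570-46012869 on the plus strand, both 5' to 3' with each TGACG or CGTCA in capitals.
Sik2: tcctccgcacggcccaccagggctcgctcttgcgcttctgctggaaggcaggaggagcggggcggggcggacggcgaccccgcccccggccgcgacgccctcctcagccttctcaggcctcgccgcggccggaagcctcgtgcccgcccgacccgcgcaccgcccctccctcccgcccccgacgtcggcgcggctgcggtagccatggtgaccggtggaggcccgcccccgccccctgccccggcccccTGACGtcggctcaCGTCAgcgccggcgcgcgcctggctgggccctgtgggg
Sik3: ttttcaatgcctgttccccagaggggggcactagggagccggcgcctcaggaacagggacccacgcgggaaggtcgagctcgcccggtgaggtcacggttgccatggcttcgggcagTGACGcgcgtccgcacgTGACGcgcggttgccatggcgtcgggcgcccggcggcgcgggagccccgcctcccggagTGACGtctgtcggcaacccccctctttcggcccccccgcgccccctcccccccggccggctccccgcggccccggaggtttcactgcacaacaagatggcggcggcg
The Sik2 window holds 1 TGACG, whose first letter is at position -1 from the start, and 1 CGTCA at position 13. The Sik3 window holds 3 copies of TGACG at positions -133, -116 and -57. The Crtc1 and Crtc3 windows hold neither, and the full TGACGTCA, which contains both ends, is in none of the 4. Over all 32851 windows of this length, searched on both strands, 20.8% hold at least 1 of the 5-letter motifs, 5.01% hold 2 or more, 1.03% hold 3 or more and 1.79% hold the full motif. A match is a description of the letters and not of binding.

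Within each family 1 gene gave most of the message. The level of a gene per length of its exons, as CPM per kb, allowed genes to be compared. Sik3 made up 75.4% ± 2.5 (SD, n = 9 libraries) of the Sik family's CPM per kb in RNA-Seq 1 and 80.7% ± 4.4 (n = 15) in RNA-Seq 2, and Crtc1 made up 75.7% ± 2.0 and 68.2% ± 1.4 of the Crtc family's. Sik1 held 16.01% ± 1.9 and 12.3% ± 4.4, and Sik2, first described in insulin-responsive tissue, held 8.63% ± 0.86 and 7.07% ± 0.56. In no library was a gene other than Sik3 or Crtc1 the leading member, since their lowest shares were 72.3% and 64.8%.

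**Figure D1:**
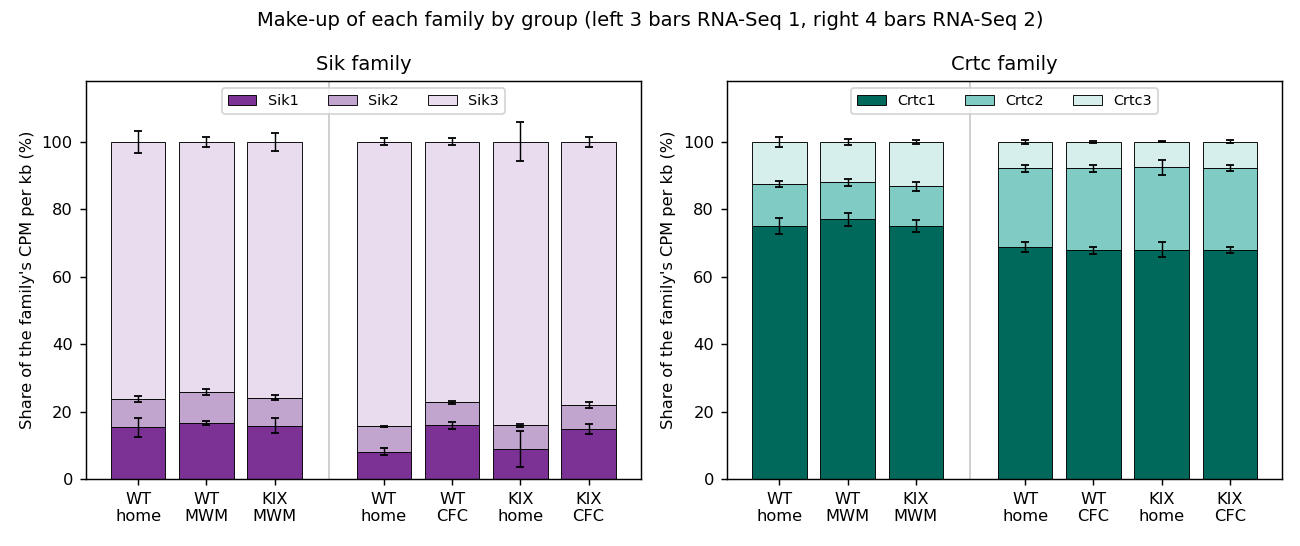
Mean share (percent, vertical axis) that each gene takes of its family's CPM per kb in the 7 groups, Sik family at the left and Crtc family at the right; error bars are SD over the libraries of a group, drawn at the top of each segment. Sik3 and Crtc1 fill most of every bar, Crtc2 takes more of the bars of RNA-Seq 2, and the Sik1 segment is thinnest in the homecage groups of RNA-Seq 2 (8.17% in WT mice).

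The 2 experiments gave different family make-ups. In untrained WT mice the level of Crtc2 was 2.22 times as high in polyA libraries (35.7 ± 2.7 CPM, n = 3) as in total RNA libraries (16.1 ± 3.7, n = 3), that of Sik1 0.495 times as high (9.19 ± 0.68 against 18.6 ± 1.9) and that of Crtc3 0.770 times as high (29.0 ± 0.3 against 37.7 ± 7.2), with ranges that did not overlap. Sik2, Sik3 and Crtc1 lay between 0.842 and 1.08 times with overlapping ranges. The share of Crtc2 was 9.89% to 13.6% of its family in RNA-Seq 1 and 22.1% to 27.5% in RNA-Seq 2, with means of 11.8% and 24.1%, beside 12.5% and 7.77% for Crtc3. Mice, site, library type and scaling differed between these libraries, and their parts were not tested.

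Sik1 had the widest range of group means of the 6 genes in RNA-Seq 2, in fold terms. In WT homecage mice of RNA-Seq 2 it stood at 8.80, 9.98 and 8.80 CPM. After CFC it stood at 17.8, 19.6, 19.0 and 19.6 CPM, above every WT homecage library, as were 2.55% of genes. The difference was 1.04 on the log2 scale (SE 0.30, all 4 RNA-Seq 2 groups in the fit), or 2.06-fold, and the SE fell to 0.11 without CBP KIX/KIX homecage replicate 3 because all groups share 1 estimate of spread.

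Sik1 in RNA-Seq 1 did not show this step. WT homecage mice had 20.6, 16.8 and 18.3 CPM and WT MWM mice had 21.4, 20.2 and 17.7, so that the groups overlapped. The difference was 0.09 (SE 0.12), or 1.06-fold. Untrained mice of RNA-Seq 1 thus held about the level, in CPM, that RNA-Seq 2 mice reached after CFC, on scales that come from different library types. Over both experiments with the batch as a term, the WT learning difference of Sik1 was 0.57 (SE 0.10), with 6 of 7 trained libraries above the mean of their own homecage group. This contrast was the one Sik1 was chosen on, so these values carry no p.

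**Figure D2:**
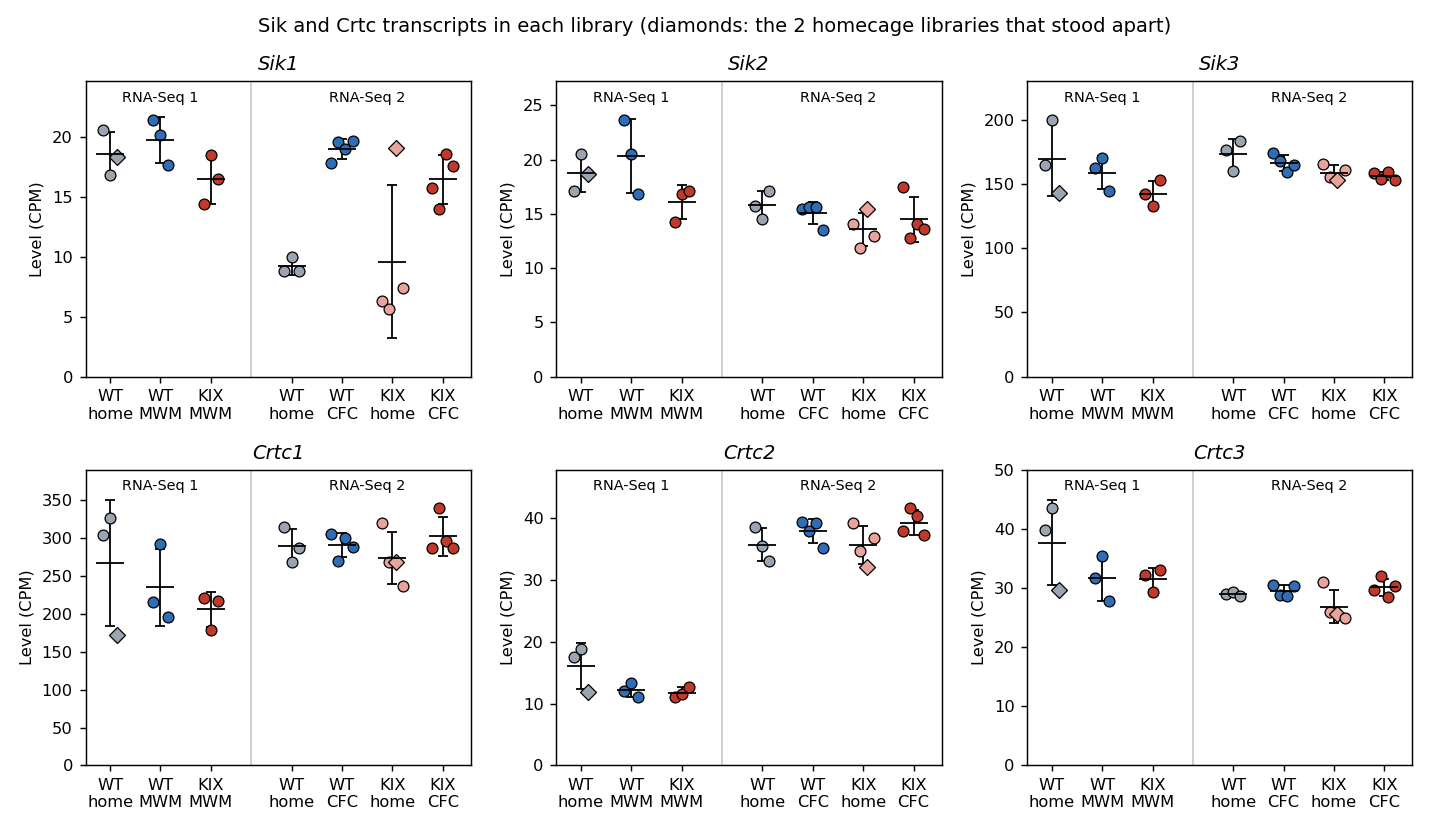
Level of each gene in CPM after upper-quartile scaling (vertical axis, from 0) in the 24 libraries, 1 point each, with the group mean and SD as black bars; diamonds are CBP KIX/KIX homecage replicate 3 and RNA-Seq 1 WT homecage replicate 3. Sik1 sits at 8.80 to 9.98 CPM in WT homecage and 17.8 to 19.6 in WT CFC mice of RNA-Seq 2, while the diamond among the CBP KIX/KIX homecage mice is at 19.1, with the other 3 at 5.65 to 7.41.

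The response in CBP KIX/KIX mice was not used to choose Sik1 and could be tested. Untrained CBP KIX/KIX mice had 6.28, 5.65, 19.1 and 7.41 CPM, and after CFC they had 15.75, 13.96, 18.5 and 17.6. Replicate 3 of the homecage group lay above all 4 trained libraries, and the groups overlapped through it alone. With all libraries the difference was 0.81 (SE 0.28), 1.76-fold, with an adjusted p of 0.2295 (edgeR quasi-likelihood test, Benjamini-Hochberg over 18851 genes). Leaving out each of the 8 libraries in turn, Sik1 was called in 1 fit, the one without that library, where the difference was 1.36 (SE 0.11) and 0.0839% of 19066 genes were called, 0.0787% as higher. The library was set apart for high levels of genes such as this one, so its removal favours the difference, and the value without it is a description with no p. Groups without overlap in this direction then made up 3.88% of the 18851 genes tested with all libraries. With the replicate number as a block, which set libraries of equal number together, the difference with all libraries was 0.89 (SE 0.25, adjusted p = 0.1401), and 4 genes and no member were called. With all libraries, 0 of 6 members and 0% of genes were called, while 2 members (Sik1 and Crtc3) and 2457 genes, 13% of those tested, had an unadjusted p under 0.05; DESeq2 called none of the 6 and 301 genes.

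CREB target genes were read in the same libraries. With all libraries none of 11 listed CREB targets was called in CBP KIX/KIX mice after CFC, and Fos was at -0.45 (SE 0.88). Without homecage replicate 3 the differences of Fos, Nr4a1 (an orphan nuclear receptor) and Dusp1 (a phosphatase of MAP kinases) were 2.92 (SE 0.25), 1.29 (SE 0.12) and 1.08 (SE 0.12) on the log2 scale. That library was set apart on the levels of these targets, so these values are a description with no test. In replicate 3 itself Nr4a1 was at 322 CPM against 30.0 to 47.2 in the rest of its group, and Dusp1 at 25.3 against 7.10 to 10.35. Both lay above the 4 CFC libraries of the same genotype, whose highest values were 94.1 and 20.4. Sik1 was less extreme than they were, at 19.1 CPM against 18.5 in the highest CFC library. Bdnf, a neurotrophin gene named here after its values were seen, stood at 44.2, 67.9, 129.5 and 126.9 CPM in replicates 1 to 4 of this group. The 3 astrocyte markers, none of them at 0, summed to 502, 795, 1121 and 1906 CPM in replicates 1 to 4, against 419 to 557 in the other RNA-Seq 2 groups. Gfap made up most of that sum (342, 618, 894 and 1596 CPM), Aqp4 stood at 117, 139, 184 and 256, and Aldh1l1, at 43.0, 37.95, 43.5 and 54.4, stayed below the highest WT CFC library (54.9). The part of these in the result was not tested, and in bulk tissue fewer cells of a type and less RNA per cell cannot be told apart.

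**Figure D3:**
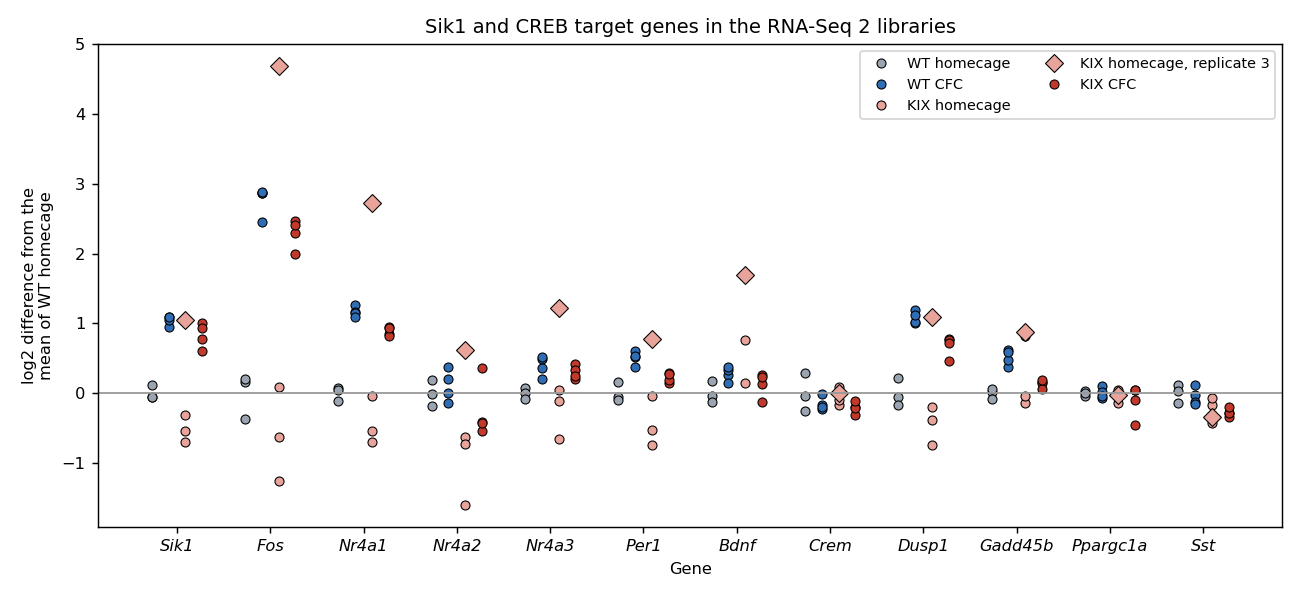
Difference of each RNA-Seq 2 library from the mean of the WT homecage group (log2 scale, vertical axis) for Sik1 and 11 CREB target genes (horizontal axis), with groups side by side in colour. The diamonds, CBP KIX/KIX homecage replicate 3, stand at the top for Fos, Nr4a1, Nr4a2, Nr4a3, Per1, Bdnf and Gadd45b, and for Sik1 at the height of the CFC libraries.

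After learning, Sik3 over both tasks was slightly lower in the mutant mice than in WT mice, and the value of Sik1 was lower as well. The WT libraries of this contrast also entered the one Sik1 was chosen on, so its call is not independent of that choice and is given as a value of the fit, not as support. Sik1 stood at 14.4, 18.5 and 16.5 CPM in CBP KIX/KIX MWM mice, beside the WT MWM values of 21.4, 20.2 and 17.7. All 3 CBP KIX/KIX libraries lay under the WT mean, with some overlap. In the fit over both experiments with the batch and 4 factors of unwanted variation (RUVr, estimated from the residuals of a first fit), Sik1 differed by -0.24 (SE 0.06), 0.844-fold, with an adjusted p of 0.0451, and was lower than the WT mean of its experiment in 7 of 7 libraries. In that comparison 2.84% of 21489 genes were called, 1.18% as higher and 1.66% as lower. The 2 members called were Sik1 and Sik3, both lower, and of these only Sik3 was tested apart from the choice of genes. Sik2 also had an unadjusted p under 0.05, beside 18.2% of genes.

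Sik3, the most abundant of the kinases and the one tied to sleep need, was the second. It had 162, 170.3 and 144.5 CPM in WT MWM and 142, 133 and 153 in CBP KIX/KIX MWM mice. After CFC it had 174, 168, 159.7 and 165 CPM in WT and 159, 154, 159 and 153 in CBP KIX/KIX mice. The CFC groups did not overlap, by a gap between 159.4 and 159.7 CPM that is small beside the SD of 5.98 in the WT group, and 1.11% of genes showed no overlap in this direction. Over both tasks Sik3 differed by -0.12 (SE 0.03), 0.920-fold, with an adjusted p of 0.0475, and was lower in 7 of 7 libraries. Sik2 differed by -0.19 (SE 0.07, adjusted p = 0.177) and was lower in 6 of 7.

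Both calls lay close to the threshold and depended on the factors. Without the factors the adjusted p was 0.352 for Sik1 and 0.469 for Sik3, with differences of -0.24 and -0.12 as before, and 0.0186% of genes were called. DESeq2 with the factors gave 0.00865 and 0.00960, where it called 4.36% of genes. Leaving out 1 library at a time, Sik1 kept the call in 6 of 14 fits and Sik3 in 5. Sik1 lost it without WT MWM replicate 1, CBP KIX/KIX MWM replicate 1 or 3, any of the 4 WT CFC libraries or CBP KIX/KIX CFC replicate 4, with an adjusted p of 0.0525 to 0.112 and differences of -0.28 to -0.21 over all 14 fits. Sik3 lost it without WT MWM replicate 1 or 2, CBP KIX/KIX MWM replicate 1 or 2, WT CFC replicate 1 or 2, or CBP KIX/KIX CFC replicate 2, 3 or 4, with an adjusted p of 0.0514 to 0.155 and differences of -0.14 to -0.097. Sik2 gained a call without CBP KIX/KIX CFC replicate 1 (-0.26). That library had the highest Sik2 level of its group, so its removal favours a fall and the value is a description with no p.

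An exact permutation test of the log2 CPM with no factors, with genotype labels exchanged within each experiment (two-sided, 1400 arrangements, smallest possible p 0.00143, chosen after seeing the data), gave unadjusted values. Its p was 0.0243 for Sik3 and 0.0971 for Sik2, with mean differences of -0.12 and -0.20. For Crtc1, Crtc2 and Crtc3 the exact p was 0.636, 0.920 and 0.819, with differences of -0.062, 0.0045 and 0.013. These 5 values are not adjusted for the number of genes, and Sik1 is left out because of how it was chosen.

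Within each task no member was called. After MWM alone, where 0 of 22276 genes were called, Sik1 differed by -0.26 (SE 0.12), Sik2 by -0.34 (SE 0.13) and Sik3 by -0.16 (SE 0.12), each lower in 3 of 3 libraries, with an adjusted p of 0.813 for all 3. Unadjusted p was under 0.05 for 2 members, Sik1 (0.0444) and Sik2 (0.0201), beside 5.77% of all genes, and DESeq2 called none of the 6 and 7 genes. The WT libraries of each task also entered the choice of Sik1. Its values in both tasks are therefore values of the fit, not support. After CFC alone Sik1 differed by -0.21 (SE 0.27), Sik2 by -0.057 (SE 0.10) and Sik3 by -0.0915 (SE 0.046), where 0.0106% of genes were called and 0 members reached an unadjusted p of 0.05, beside 2.34% of genes. DESeq2 called none of the 6 there and 4 genes. Without CBP KIX/KIX homecage replicate 3 in the shared fit, the CFC difference of Sik1 was -0.22 (SE 0.10).

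**Figure D4:**
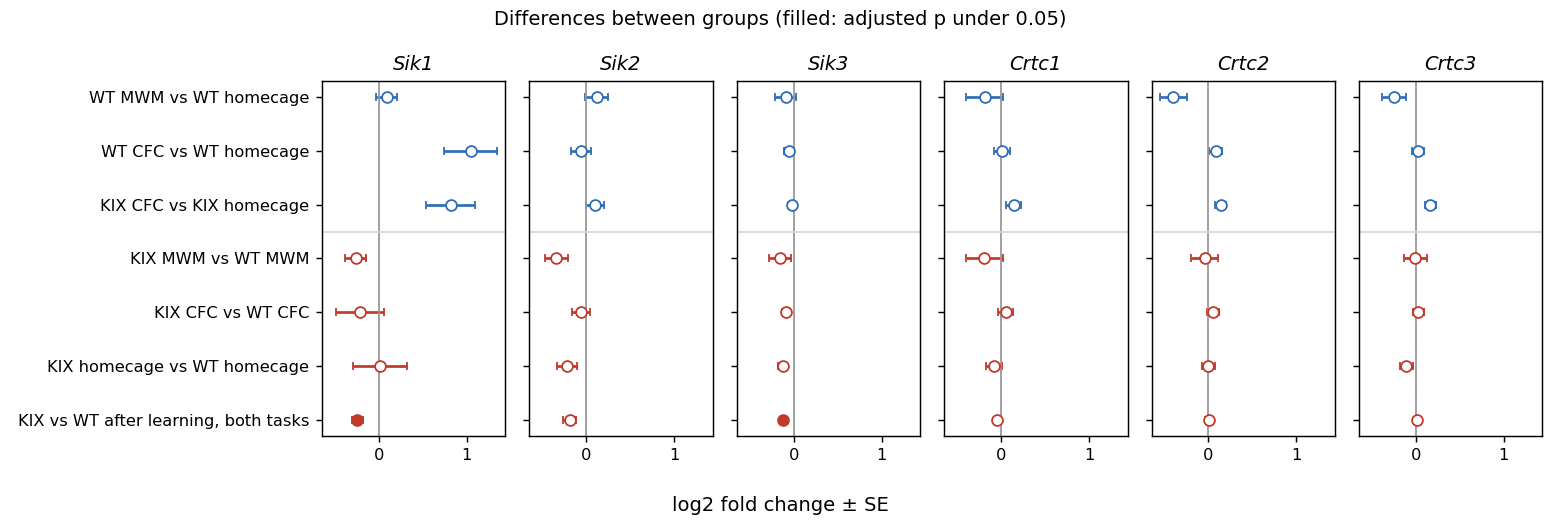
Difference between groups for each gene (log2 fold change on the horizontal axis, bars ± SE) in 7 comparisons, training in blue and genotype in red; filled points have an adjusted p under 0.05, and Sik1 in the 2 WT training rows was not tested. The 2 filled points are Sik1 at -0.24 and Sik3 at -0.12 in the bottom row, and the Sik1 points of the CFC rows lie farthest from 0, at 1.04 and 0.81. The filled Sik1 point is not independent of how Sik1 was chosen.

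Untrained mice of both genotypes were compared in RNA-Seq 2 only. With all libraries Sik1 differed by 0.015 (SE 0.30), 0.0265% of genes were called and 0 members were. Sik3 (166, 155.5, 153 and 161 CPM in CBP KIX/KIX against 176, 160.0 and 183 in WT mice) differed by -0.12 (SE 0.05, unadjusted p = 0.0243, adjusted p = 0.443) and was lower in 4 of 4 libraries, with overlap. It was the only member under an unadjusted 0.05, beside 9.81% of all genes, and DESeq2 called none of the 6 and 58 genes. Leaving out CBP KIX/KIX homecage replicate 3 changed the picture for Sik1: 5.65, 6.28 and 7.41 CPM lay under all 3 WT values of 8.80 to 9.98, a difference of -0.53 (SE 0.12). The removed library had the high Sik1 level and the WT values entered the choice of Sik1, so this is a description with no p. Sik2 then also lay wholly under the WT range (11.85 to 14.05 against 14.55 to 17.1 CPM), by -0.28 (SE 0.12, adjusted p = 0.664). Groups without overlap in this direction made up 4.97% of the 18851 genes tested with all libraries, and 0.00524% of the 19066 in the fit without it were called.

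The difference between genotypes in the response to CFC was itself tested for the 5 members other than Sik1. Values lay between 0.031 (Sik3, SE 0.07) and 0.16 (Sik2, SE 0.15), with adjusted p values from 0.950 to 0.981, an unadjusted p under 0.05 for none beside 4.79% of genes, 0 genes called of 18851 and, by DESeq2, none of the members and 1 gene. For Sik1 the value, given with no test, was -0.23 (SE 0.41) with all libraries and 0.31 (SE 0.15) without CBP KIX/KIX homecage replicate 3, so that 1 library set its sign.

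Sik2 was the least abundant of the kinases per length. It had 17.1, 20.5 and 18.7 CPM in WT homecage, 23.7, 20.5 and 16.9 in WT MWM and 14.25, 16.8 and 17.1 in CBP KIX/KIX MWM mice. In RNA-Seq 2 it had 15.7, 14.55 and 17.1 CPM in WT homecage, 15.4, 15.7, 15.7 and 13.5 in WT CFC and 17.5, 12.8, 14.02 and 13.6 in CBP KIX/KIX CFC mice, and 15.4 in the CBP KIX/KIX homecage replicate 3. Neither form of training moved it past the spread, by 0.12 (SE 0.13) after MWM and -0.060 (SE 0.11) after CFC in WT mice.

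No Crtc gene was called after CFC in WT mice, and their differences were not tested against that of Sik1. Crtc1, the brain's main coactivator of this family, had 314, 268 and 286 CPM in WT homecage and 305, 270.2, 300.2 and 289 in WT CFC mice. CBP KIX/KIX mice had 320.0, 268, 268 and 237 CPM in the homecage and 287, 339, 295.5 and 287 after CFC. Crtc2 had 38.5, 35.5 and 33.1 CPM in WT homecage, 39.5, 37.9, 39.2 and 35.1 in WT CFC, 39.2, 34.65, 32.0 and 36.9 in CBP KIX/KIX homecage and 38.0, 41.6, 40.3 and 37.25 in CBP KIX/KIX CFC mice. Crtc3 had 29.1, 29.3 and 28.7 CPM in WT homecage and 30.5, 29.0, 28.7 and 30.4 in WT CFC mice. Trained and untrained groups of each genotype overlapped. The WT difference after CFC was 0.0087 (SE 0.09) for Crtc1, 0.084 (SE 0.07) for Crtc2 and 0.028 (SE 0.07) for Crtc3, and 0 of the 5 tested members were called by edgeR or DESeq2, with none at an unadjusted p under 0.05 by either tool. No gene of 18851 was called there by either tool, beside 2.39% with an unadjusted p under 0.05.

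In CBP KIX/KIX mice all 3 Crtc genes leaned upward after CFC. Crtc3 had 31.1, 26.0, 25.6 and 24.9 CPM in the homecage and 29.7, 32.05, 28.5 and 30.5 after CFC, a difference of 0.16 (SE 0.07, adjusted p = 0.300). It was above the homecage mean in 4 of 4 trained libraries, as were Crtc1 (0.14, SE 0.08) and Crtc2 (0.14, SE 0.07), and the groups of each overlapped. Crtc3 alone gained a call without homecage replicate 1, its highest homecage library, at 0.24 (SE 0.05). In that fit 5.45% of 18332 genes were called, 2.48% as higher. Removal of that library favours a rise, so the Crtc3 value without it is a description with no p.

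No Crtc gene was called after MWM in WT mice with all libraries, and the differences were larger without 1 homecage library. Crtc2, the coactivator best known from liver glucose production, had 17.6, 18.8 and 11.9 CPM in WT homecage, 12.03, 13.4 and 11.1 in WT MWM and 11.04, 11.6 and 12.7 in CBP KIX/KIX MWM mice. Crtc1 had 304, 326 and 172 CPM in WT homecage, 216, 292 and 196 in WT MWM and 221, 179 and 217 in CBP KIX/KIX MWM mice. Crtc3 had 39.9, 43.6 and 29.7 CPM in WT homecage, 31.7, 35.5 and 27.9 in WT MWM and 32.3, 29.5 and 33.1 in CBP KIX/KIX MWM mice. For Crtc1, Crtc2 and Crtc3 homecage replicates 1 and 2 lay above every WT MWM library, and replicate 3 lay within or under their range.

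With all libraries the MWM difference in WT mice was -0.40 (SE 0.15, adjusted p = 0.374) for Crtc2, -0.25 (SE 0.13, adjusted p = 0.502) for Crtc3 and -0.19 (SE 0.21, adjusted p = 0.745) for Crtc1. No member was called, 0.0135% of genes were, and Crtc2 alone had an unadjusted p under 0.05, beside 10.9% of genes; DESeq2 called none of the 5 tested members and 76 genes. Homecage replicate 3 had the lowest level of each Crtc gene in its group. It was set apart in part for low Camk2a, the gene closest to Crtc1 in pattern. Its removal thus favours a fall, and the values without it are a description with no p. Without homecage replicate 3 Crtc2 fell by 0.59 (SE 0.11) and Crtc3 fell by 0.40 (SE 0.10), while Crtc1 was at -0.43 (SE 0.14). In that fit 10.7% of 22563 genes were called, 7.89% as lower, and 26.3% of the 22276 genes tested with all libraries showed lower groups without overlap, so the Crtc values are read against that background. Over both tasks 0 of the 5 tested members and 1.04% of genes were called with that library, by DESeq2 0 members and 818 genes, while Crtc2 and Crtc3 had an unadjusted p under 0.05, beside 17.3% of genes. Crtc1, Crtc2 and Crtc3 had adjusted p values of 0.5295, 0.148 and 0.256 with it. Without it the differences, given with no p for the same reason, were -0.18, -0.20 and -0.16, and 10.1% of 22494 genes were called, 6.27% as lower.

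The levels of the Crtc genes were correlated with each other across libraries. Over the 24 libraries, each centred on the mean of its experiment, Pearson's r was 0.8001 between Crtc1 and Crtc2, 0.894 between Crtc1 and Crtc3 and 0.846 between Crtc2 and Crtc3. Sik3 went with them (r of 0.640 to 0.718), and Sik1 less so (0.0887 to 0.160). These points share libraries, depth and scaling, and the values are a description. In RNA-Seq 1 the 2 WT homecage libraries with high Crtc levels had 6455 and 6784 CPM of the 5 neuron markers, and the third library had 4061, a gap carried by Camk2a and Slc17a7, beside 4764 to 5857 in WT MWM and 4102 to 4951 in CBP KIX/KIX MWM mice, none of the markers being at 0. Prox1 was lower in WT MWM mice (58.9, 69.05 and 53.7 CPM) than in WT homecage mice (80.6, 83.15 and 77.5), with no overlap. From WT homecage to WT MWM mice Neurod6 (68.9 ± 5.7 to 80.4 ± 0.89 CPM, SD, n = 3) and Wfs1 (172 ± 19 to 197 ± 45, with overlap) had the opposite sign, so the sum does not stand for all 5 markers. Their part in the Crtc differences was not tested.

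**Figure D5:**
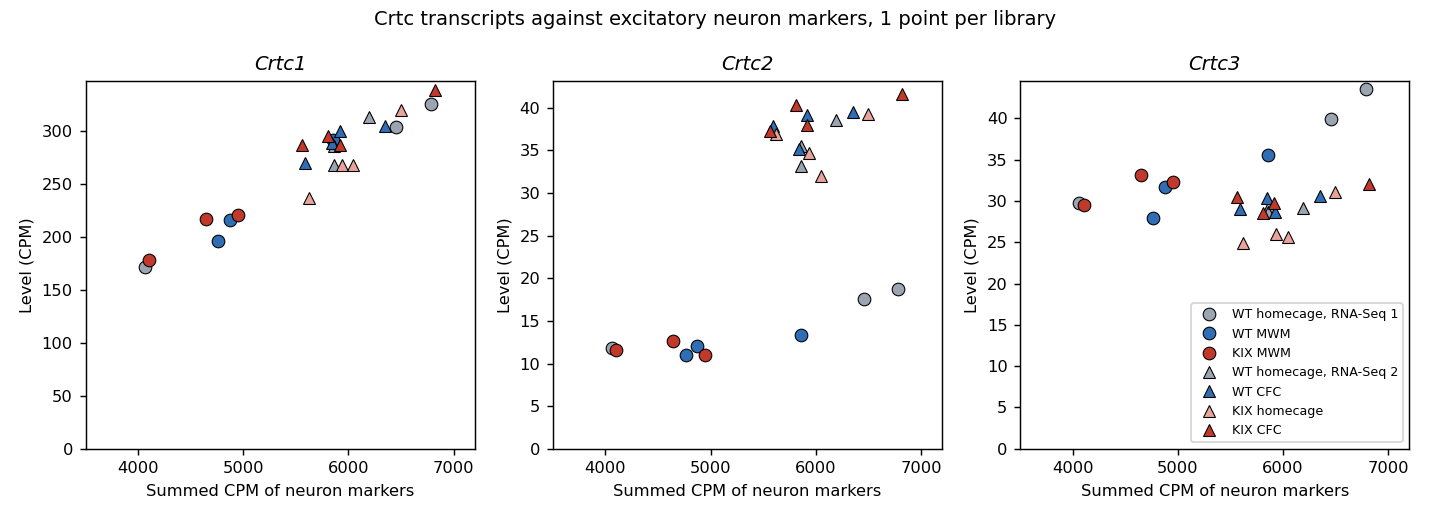
Level of each Crtc gene (CPM, vertical axis from 0) against the summed CPM of 5 excitatory neuron markers (horizontal axis, not from 0), 1 point per library, circles RNA-Seq 1 and triangles RNA-Seq 2. RNA-Seq 1 homecage replicate 3 lies at the lower left at 4061 CPM of markers with 172 CPM of Crtc1, and the other 2 homecage libraries lie at 6455 and 6784 with 304 and 326.

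The genes whose pattern was most like each member's were read from the same centred levels, over 24 libraries and 18263 genes tested in both experiments. For Sik1 they were Fos (r = 0.906), the non-coding transcript 1700016P03Rik (0.9025), Dusp1 (0.900), Apold1 (0.859), which endothelial cells make on activation, and the zinc finger gene Zbtb21 (0.842). Fos, 1700016P03Rik, Dusp1 and Apold1 held ranks 1 to 4 without CBP KIX/KIX homecage replicate 3 as well, and Zbtb21 fell to rank 12. For Sik2 they were the kinase gene Lmtk2 (0.832), Gbf1 (0.7855), which acts in Golgi traffic, and Gm13205 (0.780). For Sik3 they were the ubiquitin ligase gene Ubr4 (0.925), Iqsec1 (0.902) and Sap130 (0.895), a subunit of a repressor complex.

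Crtc1 was closest to Camk2a (0.969), the calcium kinase of excitatory synapses and 1 of the 5 neuron markers, then Ccdc97 (0.967) and the transcription activator gene Camta2 (0.966). Crtc2 was closest to the importin gene Ipo13 (0.912), Slc35c1 (0.899), a sugar transporter of the Golgi, and Sox12 (0.896). Crtc3 was closest to Gigyf1 (0.924), the histone demethylase gene Phf2 (0.919) and the splicing factor gene Sf1 (0.915). When levels were centred on the group mean, so that only spread within groups was left, Fos kept rank 1 for Sik1 at 0.935, while Dusp1 fell to rank 33.

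The other genes of the pathway were read from lists of 46 genes by role. The lists were chosen with earlier results of these data known. Counts of their calls, here and in WT mice below, are thus a description, and no excess is read from them. After learning in both tasks, 10 of the 46 were called lower, beside 1.66% of all genes, and 1 higher, beside 1.18%, in CBP KIX/KIX mice with the factors, and their median difference was -0.025 against -0.0065 over all genes. Among CREB targets 7 of 11 were lower, with a list median of -0.26, and those with the lowest p were Fos (-0.51, SE 0.06, adjusted p = 0.000654), Nr4a2 (-0.45, SE 0.05, adjusted p = 0.000810) and Hdac5 from the list of SIK substrates, a class IIa deacetylase (-0.18, SE 0.02, adjusted p = 0.00153). Outside the CREB targets and deacetylases the calls, named after their values were seen, were 1 of 6 protein kinase A subunits (Prkar1b, -0.13), 1 of 6 AMPK-related kinases (Mark4, -0.13) and 1 of 4 calcineurin subunits (Ppp3ca, 0.14). No gene was called among 5 that activate SIK, 6 that encode 14-3-3 proteins and 5 of the CREB family and its acetyltransferases. Without the factors none of the 46 was called, while 10 of 11 CREB targets stayed below 0 with a median of -0.27.

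In WT mice after learning in both tasks 6 of 11 CREB targets were higher and none lower, with the lowest p for Nr4a1 (1.08, SE 0.10, adjusted p = 0.000155), Fos (1.93, SE 0.20, adjusted p = 0.000466) and the clock gene Per1 (0.44, SE 0.05, adjusted p = 0.000992), where 1.04% of 22038 genes were called, 0.404% as higher and 0.635% as lower. The 2 pathway genes called lower, named after their values were seen, were Stk11, the kinase that activates SIK (-0.14), and Hdac7, a class IIa deacetylase (-0.24). Without the factors Fos and Nr4a1 were the only 2 of the 46 called, and the calls of Stk11 and Hdac7 were lost. After MWM alone Fos was the only 1 of the 46 called (1.14, SE 0.14, adjusted p = 0.0125), at 14.7 to 18.8 CPM against 6.89 to 8.88, beside 0.0135% of all genes. All 11 CREB targets lay above 0 there, with a median of 0.34. They ran from 0.0079 (the neuropeptide gene Sst) to 1.14 (Fos), with Dusp1 and Bdnf at 0.14 each. Sst, Dusp1 and Bdnf were named after their values were seen. After CFC alone none of the 46 was called in WT mice when all 4 groups shared the fit. With only the WT groups in the fit 4 of the 11 targets were called (Fos, Nr4a1, Dusp1 and Per1), beside 0.116% of 18115 genes. Without CBP KIX/KIX homecage replicate 3 in the shared fit 0.0892% of 19066 genes were called. There Fos was at 2.79 (SE 0.24), Nr4a1 at 1.17 (SE 0.11) and Dusp1 at 1.074 (SE 0.12). With that library in the fit the SE of Fos was 1.098. That library was set apart on the levels of these targets, so its removal favours a small SE for them. The values of Fos, Nr4a1 and Dusp1 without it are a description with no test.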

How the data were processed

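RNA-seq of dorsal hippocampus gave 24 libraries. The authors deposited raw counts per gene, made per the submitters' notes with STAR, featureCounts 1.4.4 and SAMtools 1.6 on GRCm38/mm10. The annotation release and strand setting are not given in the sources used here. Of 51826 identifiers 193 were not in GENCODE M21. Counts were tested in R 4.3.3 with edgeR 4.0.16 (filterByExpr, upper-quartile scaling, quasi-likelihood test, adjustment by Benjamini-Hochberg across every gene tested, threshold 0.05), with 1 fit per experiment. Fits over both tasks had the experiment as batch and 3 (learning) or 4 (genotype) RUVr factors computed from residuals, and the GC correction of the study was left out. CPM used upper-quartile library sizes, and log2 CPM a prior count of 2. DESeq2 1.42.0, TMM, no filter, a replicate block, no factors and leaving out libraries were alternatives. The pipeline was tested on simulated data. Named genes were the 6 members, Crebbp, at most 3 called pathway genes per comparison with the lowest p, and the 5 (Sik1) or 3 genes of most similar pattern; others are stated as named after their values were seen. Replicate numbers from the labels were taken to pair 2 groups where the deviations of every same-number pair correlated above 0.1, which held for homecage and CFC mice of each genotype (WT 0.252 to 0.5075, CBP KIX/KIX 0.193 to 0.392) and for no other groups compared. In CBP KIX/KIX mice unequal numbers also correlated (CFC 1 with homecage 2 0.270, CFC 2 with homecage 1 0.271). CFC 1 with homecage 3 gave -0.324. In WT mice homecage 1 with CFC 2 gave -0.12 and homecage 3 with CFC 4 0.201. RNA-Seq 2 libraries numbered 3 or 4 held 15385836 to 20568337 counts, and those numbered 1 or 2 held 30143949 to 46056290. The main fits of each experiment had no term for this split, and its part was not tested. Members and lists were chosen with earlier results of these data known. P-values measure the spread between these libraries, and in fits with the RUVr factors only the spread that those factors left.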

Additional observations from a re-analysis of the deposited data

Results flagged for a closer look

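In groups of 4 libraries, 1 library lay far from the other 3 (Dixon's 95% criterion) in 4 of the 18 groups looked at over the 6 genes. Chance gives about 1 in 20 for independent groups. The same libraries served all 6 genes and the Crtc genes were correlated, so the 18 are not independent. The share over all genes was not taken, so no excess is read from the count. Sik1 was at 19.08 CPM in CBP KIX/KIX homecage replicate 3, with the others at 5.65 to 7.41. Sik2 was at 13.54 CPM in WT CFC replicate 4, with the others at 15.4 to 15.7. Crtc1 was at 339.1 CPM in CBP KIX/KIX CFC replicate 2, with the others at 286.6 to 295.5. Crtc3 was at 31.09 CPM in CBP KIX/KIX homecage replicate 1, with the others at 24.9 to 26.0.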

How the results depend on the processing

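After learning in both tasks 2 members were called (Sik1, Sik3), 1 with TMM and 1 with no filter (Sik3 at adjusted p of 0.0582 and 0.0627), 0 with no RUVr factors, 0 with the replicate block and no factors (adjusted p of 0.421 for Sik1 and 0.526 for Sik3), and 0 to 3 without 1 library. Leaving out 1 library gave 0 to 2 calls for WT MWM, 0 to 1 for CBP KIX/KIX CFC against homecage and 0 to 3 for WT learning. The cause was not tested. Calls of Sik1 between genotypes after learning are not independent of how it was chosen.

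Signs turned for values near 0. For Crtc3 after MWM between genotypes (-0.0043) they were 0.021 with TMM, 0.013 with DESeq2, 0.010 with the replicate block and 0.0030 with only the groups compared. For Crtc2 between untrained genotypes (-0.0023) they were 0.0038 with TMM, 0.018 with no filter and 0.013 with the replicate block, which gave Sik1 -0.092. Without 1 library, ranges crossing 0 were -0.20 to 0.048 (Sik3) and -0.0073 to 0.24 (Sik2) for WT MWM, -0.11 to 0.027 (Crtc2) and -0.092 to 0.081 (Crtc3) for genotype after MWM, -0.045 to 0.073 (Crtc1) for WT CFC, and -0.011 to 0.16 (Sik2) for CBP KIX/KIX CFC. They were -0.012 to 0.077 (Crtc1) and -0.0071 to 0.053 (Crtc3) for genotype after CFC, -0.051 to 0.059 (Crtc2) and -0.53 to 0.22 (Sik1) for untrained genotypes, and -0.0087 to 0.098 (Crtc2), -0.013 to 0.084 (Sik3) and -0.44 to 0.31 (Sik1) for genotype by training. Over both tasks they were -0.034 to 0.075 (Sik2) and -0.18 to 0.016 (Crtc1) for WT learning, and -0.086 to 0.030 (Crtc1), -0.012 to 0.040 (Crtc2) and -0.022 to 0.053 (Crtc3) for genotype.

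Gene counts called in the main fit, DESeq2, no filter, the replicate block and only the groups compared were 3, 76, 131, 1 and 3 for WT MWM, 0, 7, 7, 0 and 3 for genotype after MWM, 0, 0, 0, 0 and 21 for WT CFC, 0, 301, 55, 4 and 2 for CBP KIX/KIX CFC, 2, 4, 3, 2 and 1 for genotype after CFC, and 5, 58, 17, 3 and 2 for untrained genotypes. WT learning gave 229 (89 higher), 139 with TMM (88 higher), 818 with DESeq2 (573 higher), 141 with no filter, 10 with the block and 9 with no factors. Genotype after learning gave 610, 936 with DESeq2, 320 with no filter, 10 with the block and 4 with no factors. Genotype by training gave 0, and 1 with DESeq2.

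By the rule given above, equal replicate numbers were taken to pair homecage and CFC libraries within each genotype and no other groups compared. In CBP KIX/KIX mice unequal numbers correlated as well, so pairs of single libraries are not shown. Within each experiment the replicate block changed no member's call. Over both tasks the block was run only without the factors. Sik1 and Sik3 lost their calls without the factors alone, so that loss cannot be credited to the block. Depth did not limit these genes, whose levels were far above 3 counts.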
